A study of Mus musculus with 12 samples.

Results

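The 6 genes described here are the Iroquois homeobox genes Irx1, Irx2, Irx3, Irx5 and Irx6 and Fto, the gene next to Irx3. They were picked by gene symbol from the 47729 genes in the deposited tables. The rule used no measured value, but the choice was made with earlier results of these data known. RNA abundance was measured by RNA sequencing of 12 libraries of adipose tissue from male wild-type C57BL/6J mice given a high-fat diet and aged 6 to 10 weeks, per the labels. There were 3 libraries from each of 4 depots: interscapular brown fat (BAT), epididymal white fat (EWAT), inguinal white fat (IWAT) and retroperitoneal white fat (RWAT). Every library was labelled as coming from surgically denervated fat, so depots were compared with one another and never with innervated tissue. The labels did not say that the replicates of a depot came from separate animals, so each p-value reflects the spread among these samples alone, and that spread may be technical. Of the 6 genes, 5 passed the filter on low counts and were tested, and Irx6 did not pass.

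Iroquois genes encode transcription factors with a homeodomain of the TALE class, known for dividing embryonic tissues into regions. In the mouse they lie in 2 clusters, with Irx1, Irx2 and Irx4 on chromosome 13 and Irx3, Irx5 and Irx6 on chromosome 8. Fto encodes a dioxygenase of the AlkB family that removes methyl groups from adenosines in RNA. Human non-coding variants inside FTO are associated with body weight and have been linked to the levels of IRX3 and IRX5 in fat progenitor cells, where these factors have been tied to lower thermogenic gene expression.

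The homeodomain is the part that defines the family, and it is shown to let a reader see how alike the 6 mouse Iroquois genes are there. The 60 coding bases printed here span the helix that contacts DNA, read from the GENCODE M21 transcripts (GRCm38), 5′ to 3′ on the coding strand, with capitals at the 9 positions where the 6 genes are not all identical.
Irx1: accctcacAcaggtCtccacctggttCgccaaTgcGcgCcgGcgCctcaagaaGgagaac
Irx2: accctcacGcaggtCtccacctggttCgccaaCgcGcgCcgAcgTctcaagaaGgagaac
Irx3: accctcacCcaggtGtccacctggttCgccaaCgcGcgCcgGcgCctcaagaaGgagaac
Irx4: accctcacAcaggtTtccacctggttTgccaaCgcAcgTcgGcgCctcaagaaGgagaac
Irx5: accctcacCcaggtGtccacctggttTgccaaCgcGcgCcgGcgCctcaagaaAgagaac
Irx6: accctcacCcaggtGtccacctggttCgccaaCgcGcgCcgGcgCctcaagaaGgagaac

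The stretches lie in exon 2 of Irx1 (chr13:71959995-71960054, minus strand), Irx2 (chr13:72630790-72630849, plus strand), Irx3 (chr8:91800499-91800558, minus strand) and Irx5 (chr8:92359753-92359812, plus strand). Those of Irx4 (chr13:73267649-73267708) and Irx6 (chr8:92677362-92677421), both on the plus strand, lie in exon 5 and exon 4 of the transcripts used. All 20 codons encode the same amino acids in the 6 genes, and Irx3 and Irx6 were identical at 60 of 60 bases. The lowest identity was between Irx2 and Irx4, at 53 of 60 bases. Over a read length of 75 bases most of the transcripts were unique. Of all 75-base words in the transcripts of Irx1, Irx2 and Irx5, 0 occurred in a transcript of another gene on either strand. For Irx3 the share was 2.32%, made of 14 words also found in Irx6 and 50 found on the opposite strand in Irx3os, an antisense RNA that overlaps Irx3 over 1653 bases. For Fto it was 1.96%, all of it on the opposite strand in the transcripts 4831440D22Rik and Gm45427. The strand setting of the counting was not given in the sources used here, so reads of Irx3 and Irx3os, and of Fto and its antisense transcripts, may have been counted together.

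The promoters of Irx2 and Fto are shown because Irx2 was the Iroquois gene whose call held in the most alternatives and Fto the gene with the narrowest range. Each is the 250 bases before the RefSeq start (GRCm38.p6), 5′ to 3′ on the gene's own strand, with capitals at matches on either strand to the letters GGGCGG (a GC box) or CCAAT.
Irx2: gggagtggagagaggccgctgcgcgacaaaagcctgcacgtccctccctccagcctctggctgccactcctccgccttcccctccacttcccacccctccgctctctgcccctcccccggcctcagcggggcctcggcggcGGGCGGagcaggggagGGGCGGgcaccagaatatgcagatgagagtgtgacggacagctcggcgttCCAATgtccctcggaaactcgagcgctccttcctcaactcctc
Fto: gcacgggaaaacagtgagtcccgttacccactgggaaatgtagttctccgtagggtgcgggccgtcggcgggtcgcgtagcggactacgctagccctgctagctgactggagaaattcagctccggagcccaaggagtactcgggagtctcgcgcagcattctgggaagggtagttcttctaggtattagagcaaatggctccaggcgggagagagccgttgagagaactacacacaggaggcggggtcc

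The window of Irx2 is chr13:72628570-72628819 and that of Fto is chr8:91313275-91313524, both on the plus strand. The first held 2 matches to GGGCGG and 1 to CCAAT, and the second held neither. TATAAA, searched on both strands as well, was in neither window. Among the 32851 promoter windows of the same length in the table, 32.7% held GGGCGG, 33.8% held CCAAT and 12.4% held TATAAA. The Fto window had a GC content of 59.2% and the Irx2 window one of 68.4%, beside a median of 52.4% over all windows. The whole Fto window lies between the start of Fto and that of Rpgrip1l, which runs the other way from a start 263 bases distant.

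Library totals ranged from 12933516 to 21106554 expected counts, and 3 counts, the floor that a count of 0 allows, equalled 0.134 to 0.227 CPM (read counts scaled to library size by TMM factors). Ucp1, the defining gene of brown adipocytes, was at 1489 CPM in BAT 1 but at 0.253 CPM in BAT 2 and 1.70 CPM in BAT 3, a range also seen in white fat (0.0571 to 8.66 CPM). The patterning gene Zic1 was at 7.35 to 16.0 CPM in all 3 BAT libraries and at no more than 0.910 CPM elsewhere. RWAT 1 and RWAT 3 carried skeletal muscle transcripts, with a summed level of 10 muscle markers of 524 and 2734 CPM beside 4.15 to 155 CPM in the other 10. TPM, the transcript share given by RSEM, is per length but is shared with short RNAs: genes with an effective length under 300 bases took 18.7% to 62.9% of it, and 1 CPM in a transcript of 1 kb equalled 0.644 TPM in EWAT 2 and 1.57 TPM in IWAT 2. Comparisons between depots therefore use counts and CPM, and TPM serves to set genes beside one another within a library. Sums of TPM are not compared between depots.

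The Iroquois genes Irx1, Irx2 and Irx3 were higher in IWAT than in EWAT, and these were the only calls made among the 5 tested genes in 6 pairs of depots. For Irx1 and Irx2 the unadjusted edgeR p was smaller in BAT against EWAT (7.10e-04 and 1.05e-04) than in IWAT against EWAT (0.00462 and 1.57e-04). The adjustment was made within each comparison, and 27 and 2082 of all tested genes were called in these. A call in IWAT alone therefore does not set IWAT above BAT. In EWAT the RNA of Irx1, Irx2 and Irx5 was at or near the floor, while Irx3 was detected in every library. BAT and IWAT overlapped for all 5 genes with no difference called, and the sign of their difference turned without 1 library for Irx2 (-0.45 without BAT 2 and -0.0333 without IWAT 1, in place of 0.17) and for Irx5 (-0.20 without IWAT 3, in place of 0.34). Fto was found in every library at many times the level of any Iroquois gene and varied little.

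Irx1 encodes the factor at one end of the chromosome 13 cluster (chr13:71957921-71963723, minus strand, GRCm38). It was at 2.34, 6.44 and 1.26 CPM in BAT 1 to 3, at 0.286, 0 and 0 CPM in EWAT 1 to 3, at 1.90, 1.47 and 1.59 CPM in IWAT 1 to 3, and at 1.11, 0.273 and 0 CPM in RWAT 1 to 3. All 3 libraries of BAT and of IWAT lay above all those of EWAT and of RWAT. The 6 reads of Irx1 found in EWAT all came from EWAT 1. The difference of IWAT from EWAT was 3.95 ± 1.15 (log2 fold change ± SE) with an adjusted p of 0.0463 in edgeR's quasi-likelihood test with Benjamini-Hochberg adjustment. BAT exceeded EWAT by 4.97 ± 1.12, with an adjusted p of 0.118 in the same test.

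Irx2 lies 665 kb from Irx1 (chr13:72628820-72634198, plus strand) and gave the lowest p of the 5 genes. Its levels were 1.07, 4.36 and 2.30 CPM in BAT, 0.238, 0.0571 and 0.0488 CPM in EWAT, 1.57, 1.96 and 3.35 CPM in IWAT and 0.773, 0.182 and 0.227 CPM in RWAT, each in the order of replicates 1 to 3. The EWAT libraries held 5, 1 and 1 reads, and again no BAT or IWAT library overlapped with an EWAT or RWAT library. In IWAT, Irx2 rose by 4.21 ± 0.78 over EWAT (log2 ± SE; edgeR adjusted p 0.0140), a fold of 18.5 with a 95% interval of 5.69 to 60.2. The difference of BAT from EWAT was as large, at 4.38 ± 0.78, and missed the threshold (edgeR adjusted p 0.0555). Irx2 was also the only one of the 5 genes called in the test for any difference among the 4 depots (edgeR adjusted p 0.0401), in which 1.14% of all 18942 tested genes were called. That call held in 14 of 27 alternatives and was lost without any 1 of EWAT 1 to 3, IWAT 1, IWAT 2 or RWAT 3 (adjusted p 0.0538 to 0.125). It was also lost with the replicate block (0.119), with limma-voom (0.0849), with the earlier quasi-likelihood method (0.0637), without RWAT 1 and RWAT 3 together (0.0596) and on the TPM scale (0.0710 to 0.206).

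Irx3, from the chromosome 8 cluster (chr8:91798525-91802067, minus strand), is the nearest Iroquois neighbour of Fto, 130 kb away. It was at 0.906, 1.88 and 2.79 CPM in BAT 1 to 3, at 0.762, 0.913 and 0.391 CPM in EWAT 1 to 3, at 2.48, 2.50 and 3.53 CPM in IWAT 1 to 3 and at 1.45, 0.909 and 1.52 CPM in RWAT 1 to 3. IWAT was above both other white depots in every library, whereas the BAT libraries spanned the range from EWAT to IWAT. The rise in IWAT over EWAT was 2.04 ± 0.46 (log2 ± SE; edgeR adjusted p 0.0259), a fold of 4.11 with a 95% interval of 2.03 to 8.32. In the order of mean levels, IWAT, BAT, RWAT and EWAT, no neighbouring pair was called.

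**Figure D1:**
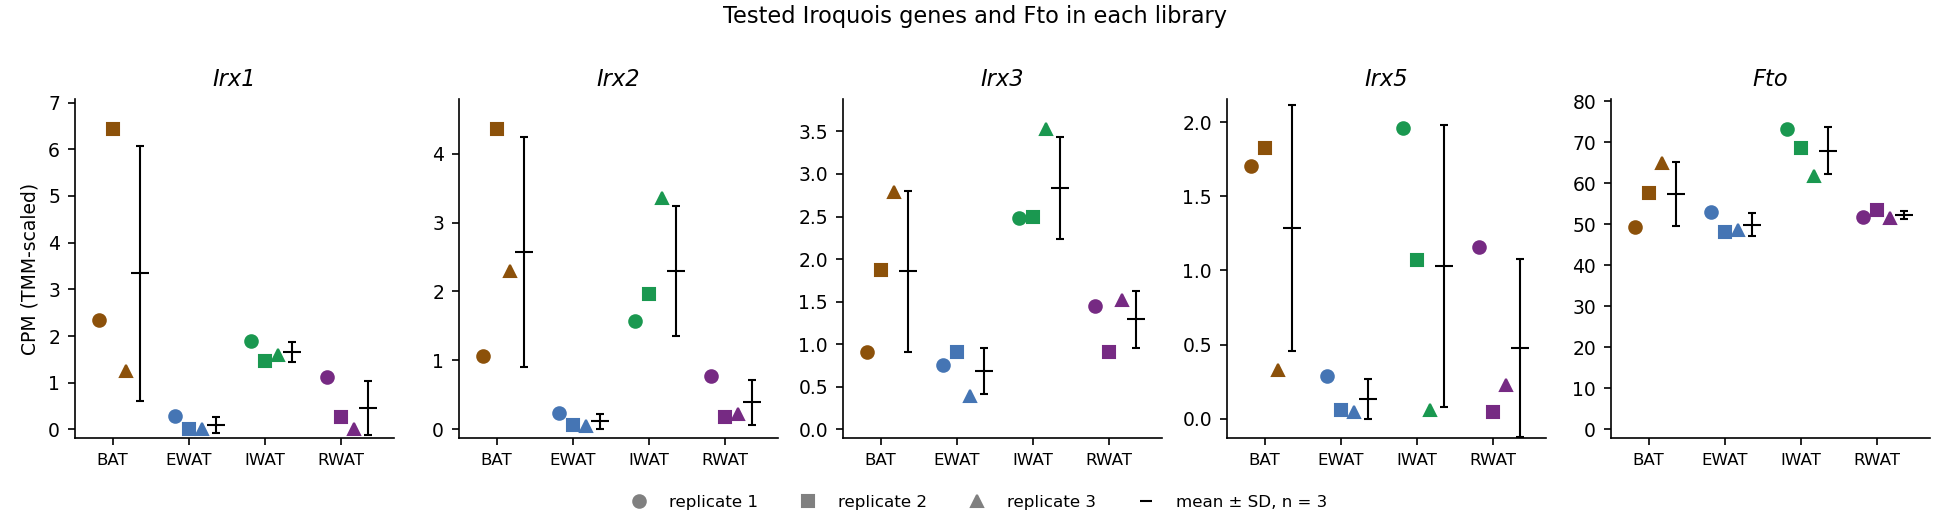
CPM (vertical axis, each panel with its own scale) of Irx1, Irx2, Irx3, Irx5 and Fto in each of the 12 libraries by depot, with black bars for the mean ± SD of 3 libraries. The EWAT libraries of Irx1, Irx2 and Irx5 lie between 0 and 0.286 CPM, Irx5 is split within BAT, IWAT and RWAT, and Fto stays between 48.0 and 73.3 CPM.

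Irx5 lies 556 kb from Irx3 (chr8:92357625-92376286, plus strand) and is known to act together with it in development. Irx5 RNA varied widely within BAT, IWAT and RWAT, and was low in every EWAT library, below all those of BAT. It was at 1.70, 1.82 and 0.329 CPM in BAT 1 to 3, at 0.286, 0.0571 and 0.0488 CPM in EWAT 1 to 3, at 1.96, 1.07 and 0.0588 CPM in IWAT 1 to 3 and at 1.16, 0.0455 and 0.227 CPM in RWAT 1 to 3. IWAT 3 held 1 read of Irx5, against 30 and 24 reads in the other IWAT libraries, and lay inside the EWAT range. IWAT 3 was at the same time the library with the highest Irx3 of all 12. The mean difference of IWAT from EWAT was 2.86 ± 1.22 (log2 ± SE; edgeR adjusted p 0.135) and that of BAT from EWAT 3.20 ± 1.19 (edgeR adjusted p 0.358), so neither was called.

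Crnde, a long non-coding RNA that starts 1.5 kb from Irx5 and runs the other way, was set beside it after its values had been seen. Its levels were 1.12, 0.862 and 0.493 CPM in BAT, 0.381, 0.285 and 0.244 CPM in EWAT, 2.16, 0.580 and 0.235 CPM in IWAT and 0.628, 0 and 0.303 CPM in RWAT. The libraries with low Irx5 within BAT, IWAT and RWAT were also the low ones of Crnde. Over the 12 libraries the Pearson r of log2 CPM between Irx5 and Crnde was 0.864, beside 0.338 between Irx5 and Irx3, as a description of points that share library depth and scaling. Crnde itself was called in 0 of the 6 pairs of depots, with 1.64 ± 0.89 in IWAT over EWAT (log2 ± SE; edgeR adjusted p 0.237).

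Irx6, at the far end of the cluster (chr8:92674288-92680956, plus strand), had 3 reads in the 12 libraries, 1 in each of 3 libraries of different depots. The remaining family member, Irx4 of the chromosome 13 cluster (chr13:73260479-73269608, plus strand), had 0 reads in all 12 libraries, and 3 counts over the pooled libraries equal 0.0133 CPM. Irx3os had 19 reads in all and at most 5 in 1 library. These 3 genes did not pass the filter on low counts, and at this depth no difference between depots was detectable for them.

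Fto (chr8:91313525-91668439, plus strand) was at 49.4, 57.7 and 64.9 CPM in BAT 1 to 3, at 53.1, 48.0 and 48.6 CPM in EWAT 1 to 3, at 73.3, 68.6 and 61.9 CPM in IWAT 1 to 3 and at 51.8, 53.4 and 51.5 CPM in RWAT 1 to 3. The highest library exceeded the lowest by 1.53 times. IWAT lay above EWAT and RWAT in every library and overlapped with BAT. By depot, Fto averaged 57.3 ± 7.74 CPM in BAT, 49.9 ± 2.79 in EWAT, 67.9 ± 5.72 in IWAT and 52.2 ± 1.04 in RWAT (SD, n = 3). The difference of IWAT from EWAT was 0.45 ± 0.15 (log2 ± SE; edgeR adjusted p 0.0698), a fold of 1.36 with a 95% interval of 1.09 to 1.70, and was not called. With DESeq2 it was called (adjusted p 0.0279), as were 3780 of all tested genes. Between BAT and EWAT the 95% interval of the fold ran from 0.920 to 1.44, and between RWAT and EWAT from 0.838 to 1.31.

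**Figure D2:**
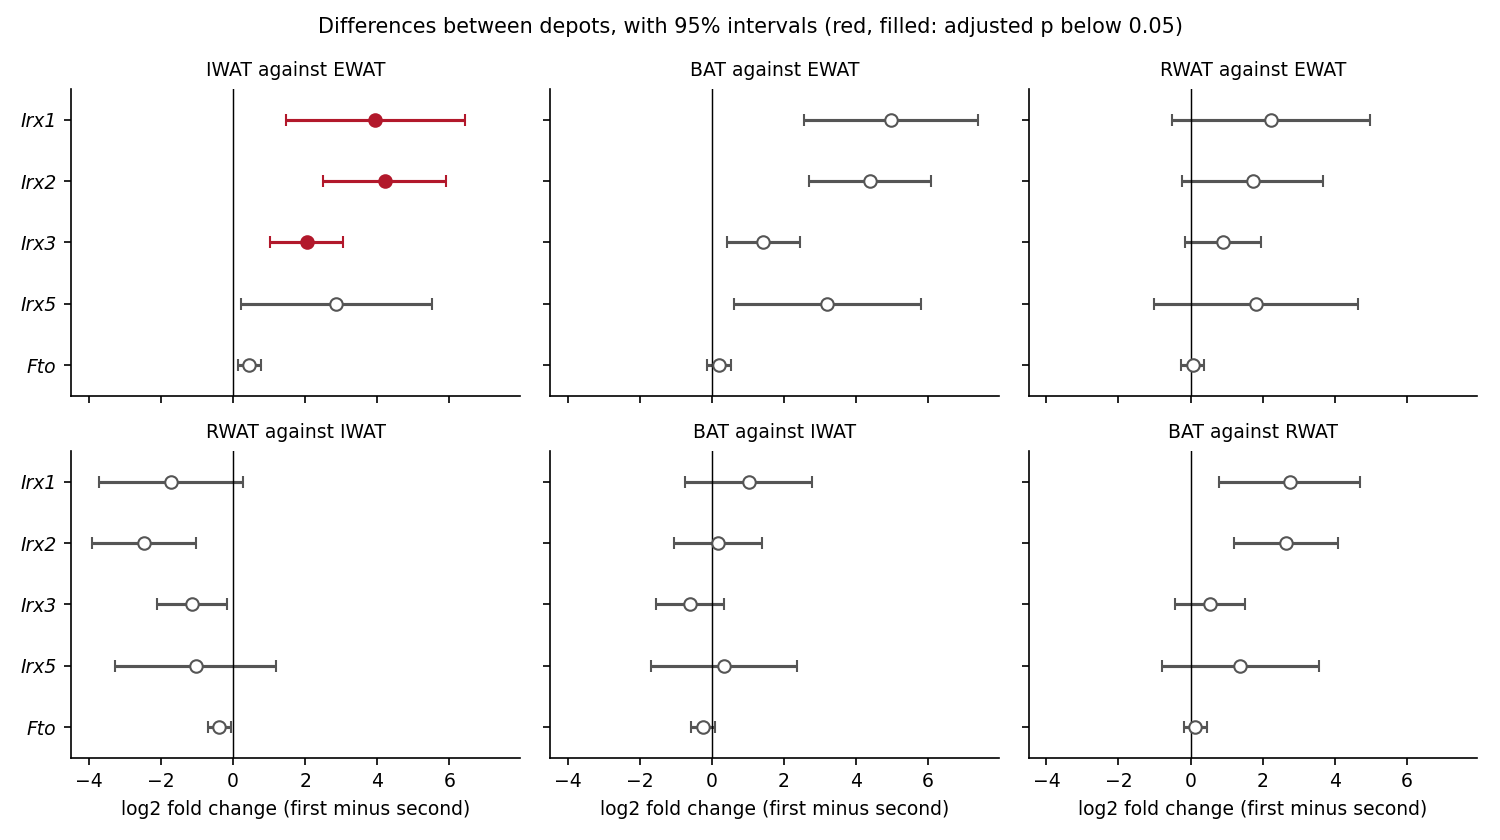
Log2 fold change (horizontal axis, first depot minus second) of the 5 tested genes in the 6 pairs of depots, with 95% intervals from the edgeR fit. The only filled red points, Irx1, Irx2 and Irx3 in IWAT against EWAT, mark adjusted p below 0.05.

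In IWAT against EWAT, 3 of the 5 tested genes were called, all higher, beside 11.0% of all tested genes called and 5.47% called higher. The libraries of the 2 depots did not overlap for 4 of the 5 genes, Irx1, Irx2, Irx3 and Fto, as they did not for 32.4% of all tested genes (17.3% with IWAT higher). The median log2 fold change was 3.41 over the 4 tested Iroquois genes and 0.0244 over all genes. Irx1, Irx2 and Irx5 had 0 to 6 reads in each EWAT library, so they passed the filter through the other depots. That selection pushes the counts and the median upward, so they are no test of the family. Fewer cells of a type and less RNA per cell cannot be told apart in these bulk samples. The call of Irx2 was lost without EWAT 3 (adjusted p 0.0624) or IWAT 2 (0.0527) and held in 25 of 28 alternatives, that of Irx3 was lost without EWAT 1, EWAT 3, IWAT 1 or IWAT 2 (0.0634 to 0.0917) and held in 20, and that of Irx1 was lost without any 1 of 8 libraries (BAT 1, RWAT 2 and all of EWAT and IWAT; 0.0548 to 0.146) and held in 14. Without EWAT 1 the log2 fold change of Irx1 moved to 7.95, since the other 2 EWAT libraries held 0 reads.

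Markers of other cell types were called in the same comparison, in which 11.0% of all tested genes were called. Of 10 fat progenitor markers, 8 had a positive difference of IWAT from EWAT and 2 a negative one. Called higher were 6 of the 10 markers, among them Pi16 (5.96 ± 0.94, log2 ± SE), Dpp4 (3.63 ± 0.60) and Ly6a (1.98 ± 0.36). Their summed CPM was 371 to 526 in EWAT, 811 to 1844 in IWAT, 636 to 897 in RWAT and 1131 to 1373 in BAT, and none of the 10 was at 0 in all 12 libraries. Irx1, Irx2 and this marker sum were lower in every EWAT library than in any BAT or IWAT library, while RWAT lay above EWAT for the sum and overlapped with it for Irx1 and Irx2. The part of progenitor content in the Iroquois differences was not tested. Summed CPM of 12 adipocyte markers lay between 1305 and 10905 in EWAT, 17596 and 25208 in IWAT, 4343 and 22045 in BAT, and 3496 and 10196 in RWAT. All 12 had a positive difference of IWAT from EWAT, with a median log2 fold change of 2.24. At an unadjusted edgeR p under 0.05 there were 8 of the 12, beside 5812 of all 18942 tested genes. After adjustment 1 of the 12 (Cebpa, 1.46 ± 0.39) was called higher in IWAT, a call lost without any 1 of BAT 1, EWAT 1 to 3, IWAT 1, IWAT 2 or RWAT 1 (adjusted p 0.0508 to 0.118). The part of adipocyte content in the Iroquois differences was not tested either. Of 8 macrophage markers 4 were called lower in IWAT, of 10 mesothelial markers 5 and of 7 tested epithelial markers 4, including Krt8 (a difference of -8.92 ± 1.14) and Wt1 (-8.14 ± 1.36). In these lists 1, 1 and 2 markers had a positive difference. Without IWAT 2 the calls of Pi16, Dpp4, Ly6a and Wt1 were lost (adjusted p 0.0511 to 0.0615). Other calls in these lists held less often. Of 28 alternatives, the macrophage marker Adgre1 lost its call in 17, the mesothelial markers Krt19 and Upk3b in 22 and 10, and the epithelial marker Krt7 in 11. Krt8 lost its call in 0. Of 8 mural and smooth muscle markers, 3 were called lower, Cnn1 (-3.79 ± 0.86), Tagln (-3.04 ± 0.70) and Des (-2.84 ± 0.63), and 1 was called higher, Cspg4 (0.98 ± 0.27). These 4 calls were lost without any 1 of EWAT 1, IWAT 1 or IWAT 2 (adjusted p 0.0545 to 0.118). Of the Schwann cell genes, 3 of 7 tested were called higher, and all 7 had a positive difference. The 10 epididymal markers, 5 of them at 0 in every library, summed to 0.440 to 1.26 CPM in EWAT and 0.588 to 1.96 CPM in IWAT.

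In the 3 comparisons with BAT, 0 of the 5 genes were called. The shares of all tested genes called were 0.143% against EWAT, 0.0264% against IWAT and 0.0211% against RWAT, and at an unadjusted p under 0.05 there were 4, 0 and 2 of the 5 genes, beside 1884, 2501 and 894 of the 18942. BAT libraries did not overlap with EWAT for Irx1, Irx2 and Irx5 (10.6% of all tested genes did not, 5.49% with BAT higher), nor with RWAT for Irx1 and Irx2 (8.50%, and 4.15% with BAT higher). They overlapped with IWAT for all 5, while 16.3% of all tested genes did not overlap. With DESeq2, Irx1 and Irx2 were called in BAT against EWAT, with adjusted p of 0.00195 and 1.07e-04, among 477 of all tested genes called by that tool. BAT 1, the library with high Ucp1, had the lowest Irx2 and Irx3 of the 3 but the middle level of Irx1 and Irx5. With BAT 1 as the only BAT library, assumed to vary like the other depots, the difference of BAT from IWAT in Irx2 was -1.10 (log2).

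RWAT had intermediate means between EWAT and IWAT for all 5 tested genes. In RWAT against EWAT 0 of 5 were called, beside 0.00528% of all genes, and in RWAT against IWAT 0 of 5, beside 0%. At an unadjusted p under 0.05 the numbers were 0 and 3, the 3 being Irx2, Irx3 and Fto, beside 912 and 3909 of the 18942. RWAT lay below IWAT without overlap for Irx1, Irx2, Irx3 and Fto, as was the case for 26.2% of all tested genes in either direction and 15.2% with RWAT lower. Against EWAT all 5 overlapped, and 7.75% of all tested genes did not. For Irx2 the difference was -2.48 ± 0.66 (log2 ± SE; edgeR adjusted p 0.123, DESeq2 adjusted p 0.0212, among 1149 genes called by DESeq2). RWAT 1 held the most Irx1, Irx2 and Irx5 of the 3 RWAT libraries, and it carried muscle transcripts (524 CPM). RWAT 3 carried more of them (2734 CPM) and held 0, 3 and 3 reads of the same genes, at the lowest total of all libraries (12933516 expected counts). The part of muscle tissue in these levels was not tested.

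Set beside one another per length, the Iroquois genes differed in order between depots. In IWAT the mean TPM was 1.89 for Irx2, 1.40 for Irx3, 0.87 for Irx1 and 0.48 for Irx5, beside 38.4 for Fto. The summed Iroquois TPM was 2.57, 10.8 and 3.24 in BAT 1 to 3, 1.00, 0.33 and 0.23 in EWAT 1 to 3, 3.05, 5.06 and 5.85 in IWAT 1 to 3 and, for the RWAT libraries, 2.37, 1.00 and 0.94. These sums are given as the base of the shares within each library. Irx3 made up 47.0% to 73.9% of that sum in EWAT, 26.6% to 31.6% in IWAT, 8.83% to 32.4% in BAT and 28.3% to 59.6% in RWAT. Irx1 and Irx2 together made up 8.70% to 34.0% in EWAT and 50.8% to 67.4% in IWAT. The EWAT shares rest on 11 to 33 reads a library. The effective length that RSEM gave Irx2, which follows the isoforms assigned, ran from 486 to 2552 bases, so its TPM carries that choice as well, whereas that of Irx3 lay between 2524 and 2537 bases. In reads the order of these genes in IWAT was reversed, with 154 of Irx3 and 125 of Irx2 over the depot. The lead of Irx2 in TPM there, and the shares that include it, therefore depend on the effective length.

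**Figure D3:**
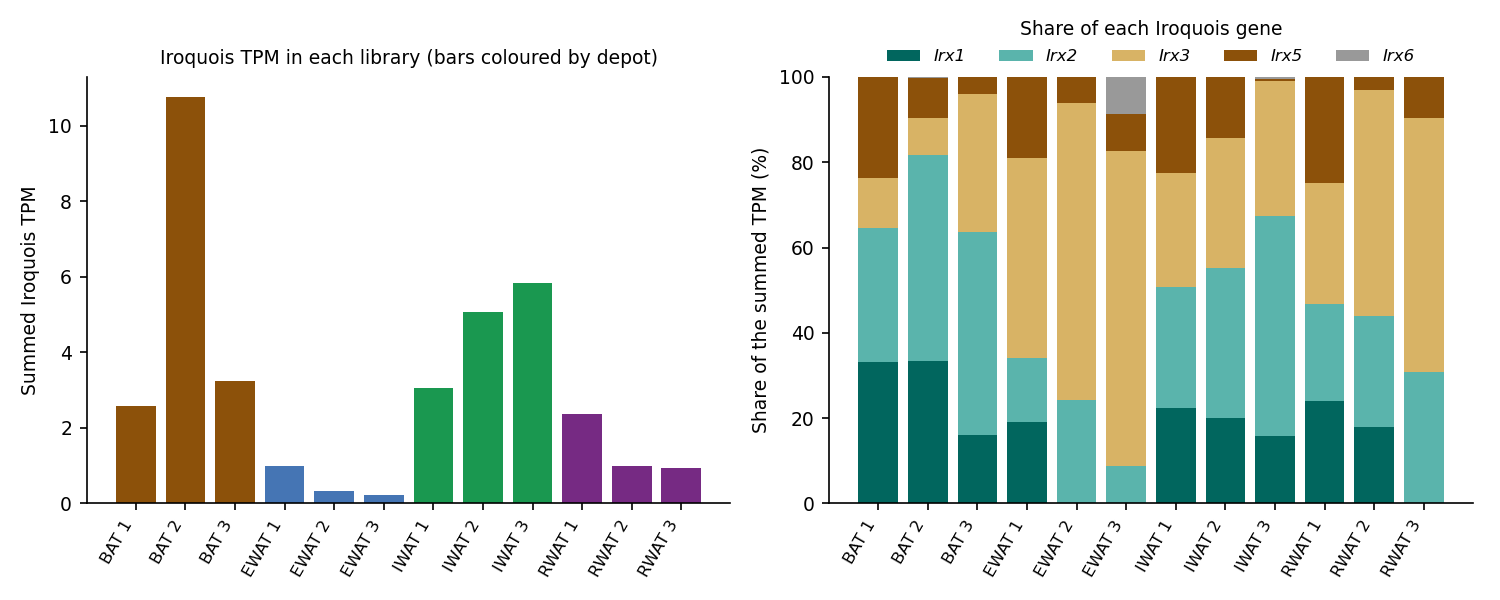
Left, summed TPM of Irx1, Irx2, Irx3, Irx5 and Irx6 in each library, coloured by depot. Right, the percentage of that sum from each gene, where Irx3 takes 47.0% to 73.9% in EWAT and 26.6% to 31.6% in IWAT, and the grey Irx6 share in EWAT 3 rests on 1 read.

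Among the genome neighbours 3 of 9 on chromosome 8 and 1 of 15 on chromosome 13 were called in IWAT against EWAT, beside 11.0% of all tested genes. Of the 19 other coding genes within 1 Mb of the span from Fto to Irx6, 9 were tested. In IWAT against EWAT 2 were called higher and 1 was called lower. Mmp2, which encodes a matrix-degrading gelatinase and lies beyond Irx6 (chr8:92827291-92853420), was at 196 ± 30.8 CPM in IWAT and 55.8 ± 22.0 CPM in EWAT (SD, n = 3), a difference of 1.81 ± 0.27 (log2 ± SE; edgeR adjusted p 0.00980). Lpcat2, which follows it (chr8:92855339-92919279) and a lysophospholipid acyltransferase, went the other way, at 2.68 ± 0.305 CPM in IWAT and 20.2 ± 6.71 CPM in EWAT (-2.90 ± 0.42; edgeR adjusted p 0.00889), a call kept without any 1 library. Ces1f, a carboxylesterase (chr8:93256236-93279747), was higher by 3.63 ± 0.91 (log2 ± SE; edgeR adjusted p 0.0332). The call of Mmp2 was lost without IWAT 2 (adjusted p 0.0511), and that of Ces1f without any 1 of EWAT 1 to 3, IWAT 1 or IWAT 2 (0.0546 to 0.0917).

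Rpgrip1l, a gene of the primary cilium, shares the printed promoter window with Fto. It averaged 9.51 ± 0.0308 CPM in BAT, 9.43 ± 0.850 in EWAT and 9.03 ± 0.308 in IWAT (SD, n = 3), and its difference between IWAT and EWAT was -0.06 ± 0.17 (log2 ± SE; edgeR adjusted p 0.852). Around the chromosome 13 cluster 15 of 18 other coding genes within 1 Mb were tested. In IWAT against EWAT 0 were called higher and 1 was called lower. This was Trip13, a chromosome-segregation ATPase, with -1.89 ± 0.50 (log2 ± SE; edgeR adjusted p 0.0376), a call lost without EWAT 1, EWAT 3, IWAT 1, IWAT 2 or RWAT 1 (0.0537 to 0.110).

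**Figure D4:**
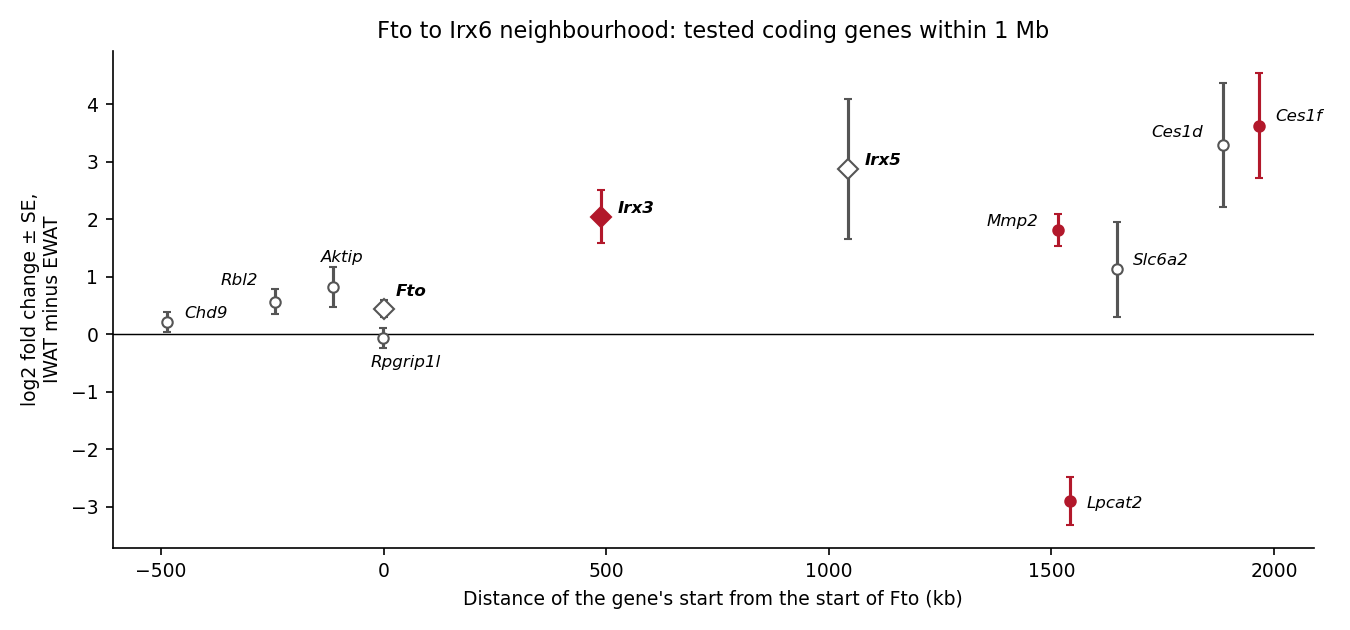
Log2 fold change of IWAT over EWAT (vertical axis, ± SE) of the tested coding genes around Fto and the chromosome 8 Iroquois cluster, by the distance of their starts from that of Fto in kb. Diamonds are Fto, Irx3 and Irx5, filled red marks have an adjusted p below 0.05, and Mmp2 and Lpcat2, side by side, differ by 1.81 and -2.90.

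The other genes of the TALE class, relatives of the Iroquois genes, included none that was called higher in IWAT than in EWAT. Of 11 tested, 0 were called higher and 2 lower, beside 11.0% of all tested genes called. The differences were positive for 3 and negative for 8, with a median log2 fold change of -0.222. Tgif1, a repressor in TGF-beta signalling, differed by -1.92 ± 0.36 (log2 ± SE; edgeR adjusted p 0.0156), and Tgif2, named after its value was seen, by -1.55 ± 0.39 (0.0329). The call of Tgif1 was lost without IWAT 1 or IWAT 2 (0.0561 and 0.0633), and that of Tgif2 without EWAT 1, EWAT 3, IWAT 1 or IWAT 2 (0.0697 to 0.101) and with an offset for effective length (-0.93). Meis1, a partner of Hox factors, differed by -0.72 ± 0.29 (edgeR adjusted p 0.118).

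None of the tested genes that write or read RNA methylation, or belong to the AlkB family beside Fto, was called in IWAT against EWAT. Of all tested genes 11.0% were called there. Among the writers of N6-methyladenosine 0 of 10 tested genes were called in IWAT against EWAT, among its readers 0 of 9 and among the other AlkB dioxygenases 0 of 8, with median log2 fold changes of 0.083, -0.122 and 0.115. Among the genes with the smallest p over the depots, the differences were 0.33 ± 0.14 for the methyltransferase Mettl16 (log2 ± SE; edgeR adjusted p 0.136), -1.47 ± 0.49 for the mRNA-binding reader Igf2bp2 (0.0738) and -0.73 ± 0.26 for Alkbh1 (0.0868). The count in the test for any difference among the depots was 0 for all 3 lists, beside 1.14% of all tested genes.

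Of 11 tested genes named in work on IRX3 and IRX5 in fat, 1 was called in IWAT against EWAT, beside 11.0% of all tested genes. Prdm16, a coregulator of the brown fat programme, was at 15.4 ± 5.40 CPM in IWAT, 2.82 ± 1.41 CPM in EWAT and 8.46 ± 5.01 CPM in BAT (SD, n = 3), and the difference of IWAT from EWAT was 2.44 ± 0.50 (log2 ± SE; edgeR adjusted p 0.0189). It was lost without EWAT 3 (0.0760) or IWAT 2 (0.0690). Ucp1, of the same list, differed by 2.62 ± 2.16 (edgeR adjusted p 0.453). The median log2 fold change of the 11 genes was 1.52, beside 0.0244 over all genes, with 7 positive and 4 negative.

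Likeness to each gene was measured as the Pearson r of log2 CPM over the 12 libraries, among 13092 genes with a mean of at least 1 CPM, and serves as a description of libraries that share depot, depth and scaling. Irx1 and Irx2 were among the 5 closest genes of each other, with r of 0.922. The closest to Irx1 was Cspg4, a proteoglycan of pericytes and glia (0.937), whose list-mates Cnn1, Tagln and Des went the other way in IWAT against EWAT, and Lhx8, a homeobox gene, followed (0.923). Lhx8 was at 9.20 ± 1.31 CPM in BAT, 0.897 ± 1.36 CPM in RWAT and 2.71 ± 1.05 CPM in IWAT (SD, n = 3) and had 0 reads in EWAT. Next to Irx1, the genes closest to Irx2 were Lama4 (0.914), Sik3 (0.907), Lamc1 (0.901) and Osr2 (0.896), of which Lama4 and Lamc1 encode laminin chains.

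The highest r of all belonged to Irx3 and Nid1, which encodes the basement membrane protein nidogen (0.985). Nid1 was at 1078, 980 and 1175 CPM in IWAT 1 to 3 and at 447, 416 and 261 CPM in EWAT 1 to 3, with BAT at 528 to 1094 CPM and RWAT at 475 to 645 CPM. As with Irx3, the IWAT libraries were high, those of EWAT low, and BAT spread between them. The laminin gene Lamb2 (0.968), March3 (0.959), Amotl2 (0.956) and Lzts3 (0.952) came next. Irx5 was closest to Fut8 (0.889), and Fto to the growth factor receptor gene Egfr (0.936), followed by Nckap1 (0.935), Nsd1 (0.934), Atrn (0.932) and Cd81 (0.932). Among the 5 tested genes, r was 0.834 for Irx2 and Irx3, 0.812 for Irx3 and Fto, and 0.746 for Irx1 and Irx5.

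**Figure D5:**
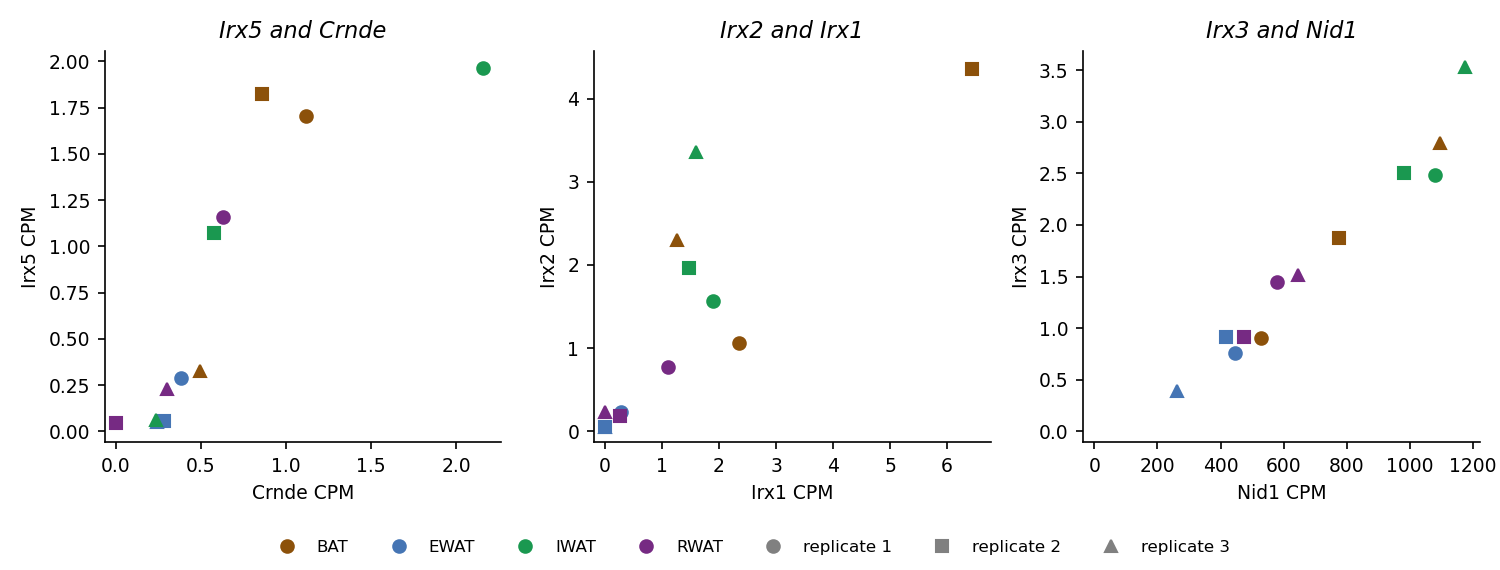
CPM of Irx5 against Crnde, Irx2 against Irx1 and Irx3 against Nid1, 1 point per library, coloured by depot and shaped by replicate. The low Irx5 libraries (BAT 3, IWAT 3, RWAT 2, RWAT 3 and EWAT) lie at 0 to 0.493 CPM of Crnde, and Irx3 follows Nid1 from 261 to 1175 CPM.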

How the data were processed

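Per the labels' protocols, libraries of total RNA without ribosomal RNA were read from 1 end over 75 bp. Trimmomatic 0.36, RSEM 1.3.0, DESeq2 1.10.1 and the build GRCm38.p4 are named in the submitters' processing notes, and no aligner, annotation release or strand setting is stated there (not given in the sources used here). Per the file headers, the authors deposited expected counts from RSEM, 1 value for a gene in a library, which estimate reads and are not normalized. The deposited TPM, scaled per effective length by the authors, was used for levels within a library and for alternatives, and the deposited effective length, in bases, for 1 alternative. Of 47729 genes, 47224 Ensembl IDs were found in GENCODE M21.

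Expected counts were rounded and low genes removed by filterByExpr (edgeR 4.0.16, minimum count 10), which left 18942, and scaled by TMM factors of 0.846 to 1.14. Depots were compared by 2-sided quasi-likelihood tests in edgeR, from 1 model of the 12 libraries with a coefficient per depot, and adjusted by Benjamini-Hochberg over all genes tested (threshold 0.05). An SE is the log2 fold change divided by the root of F. The biological coefficient of variation was 0.385. Fitted folds against EWAT levels of a few reads depend on the prior count. Named genes were the members, Irx4 and Irx3os, coding genes within 1 Mb, of each other list up to 4 genes past the threshold over the depots or else the 2 with the smallest p there, and the 5 genes most like each member. The members and lists were chosen with earlier results of these data known, and Crnde and Tgif2 were named after their values were seen. Floors and intervals cover counting error only, since no molecular identifiers were described.

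Alternatives were other scalings (RLE, upper quartile), other filters, DESeq2 1.42.0, limma-voom and limma-trend on log2 TPM (limma 3.58.1, pseudocounts 0.5 and 0.1), an offset for effective length, only the groups compared, a replicate block and each library left out. An earlier quasi-likelihood method and 3 pairs of libraries left out together were added after seeing the data. The edgeR test was also run on data simulated with known changes from the mean levels and spreads of these libraries, with results not given here. R 4.3.3 was used.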

Additional observations from a re-analysis of the deposited data

How the results depend on the processing

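The number of tested genes called in IWAT against EWAT was 3 and changed by more than 1.5 times in 7 of 28 alternatives. These were TPM with pseudocounts of 0.5 and 0.1 (1 and 1) or with no filter (0), and the fits without EWAT 1, EWAT 3, IWAT 1 or IWAT 2. The number ranged from 0 to 3 over the 12 libraries left out singly. A loss of 1 of the 3 calls does not exceed 1.5 times and is not among the 7. By gene, the call of Irx1 was lost in 14 of the 28 alternatives, that of Irx3 in 8 and that of Irx2 in 3. Over all genes the count fell from 2082 to 55 without IWAT 2 and to 263 without EWAT 3, and DESeq2 gave 3780. For any difference among the depots the 215 genes became 2421 with DESeq2, 35 with limma-voom and 15 without IWAT 2. In the test for any difference among the depots the count of 1 became 3 with DESeq2 and 0 with limma-voom, with the 3 TPM fits, with the replicate block, with the earlier quasi-likelihood method and without RWAT 1 and RWAT 3 together, and was 0 to 1 with single libraries left out. In BAT against EWAT the count of 0 became 1 with no filter or with the effective length offset and 2 with DESeq2, and was 0 to 1 with single libraries left out. In RWAT against IWAT it became 1 with DESeq2. The other 3 pairs stayed at 0 in all 28 alternatives.

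Signs changed only for differences that were not called. Irx2 in BAT against IWAT became -0.45 without BAT 2, -0.0333 without IWAT 1, -0.45 without EWAT 1 and BAT 2, and -1.10 without BAT 2 and BAT 3. Irx3 in BAT against RWAT became -0.49 and Fto in BAT against EWAT -0.0169 without BAT 2 and BAT 3. Irx5 in BAT against IWAT became -0.20 without IWAT 3, and in RWAT against EWAT -0.18 without RWAT 1 and -1.44 without RWAT 1 and RWAT 3. Fto in BAT against RWAT became -0.0795 without BAT 2 and BAT 3, and -0.12 on the TPM scale with either pseudocount and with no filter. The cause was not tested. With single libraries left out, these ranged from -0.45 to 0.55 for Irx2 and -0.20 to 1.11 for Irx5 in BAT against IWAT, and from -0.18 to 3.07 for Irx5 in RWAT against EWAT.

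The labels named no animal shared by libraries of the same replicate number. Deviations of same-numbered libraries correlated above 0.1 for all 3 numbers in 1 of 6 pairs of depots, BAT and RWAT (r from -0.36 to 0.43 in all pairs). With 3 libraries a depot, these values cannot tell whether depots shared animals. With the replicate block 3 of the genes were called in IWAT against EWAT and 0 in the other pairs, and over all genes the count was 1064 in place of 2082, and 27 in place of 215 for any difference. Irx1, Irx2 and Irx5 had 0 to 6 reads in each EWAT library, so depth limits their folds. With only the groups compared, the filter left 2 of the 5 genes in RWAT against EWAT and 4 in the other pairs with EWAT.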
